A study of Homo sapiens with 9 samples.

Results

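The proteasome subunit genes are the protein-coding genes on chromosomes 1 to 22 and X whose RefSeq symbols begin with PSMA, PSMB, PSMC, PSMD, PSME, PSMF or PSMG followed by a number. This rule took 50 of 19974 protein-coding genes. Of these 50, 48 code for a subunit, regulator or assembly factor of the proteasome. The other 2 were taken by their symbols and were classed here as not being subunits. PSMC3IP codes for a partner of the recombinases of meiosis, and PSME3IP1 for a protein that interacts with the activator PSME3. The rule reads symbols and no measured value.

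The measurements came from chromatin immunoprecipitation and sequencing (ChIP-seq) in RPMI-8402, an established line of T-cell acute lymphoblastic leukaemia. After NKX2-1, a homeobox transcription factor, was targeted in this line, 4 clones were kept as wild type (WT10, WT13, WT28 and WT30) and 4 as knockout (C12, C15, S04 and S36). The knockout clones are described as such in the design text, while their genotype label reads only NKX2-1. One library per clone was made with the NKX2-1/TTF1 antibody ab76013, with no other treatment named, so each library stands for 1 clone and clonal and technical spread cannot be told apart. One further library of the same line was made with an antibody to H3K27ac, the acetylation of lysine 27 of histone H3 found at active promoters and enhancers. It carries the genotype label NKX2-1, as the knockout clones do, with no clone named, and it has no replicate. Whether it came from wild-type or knockout cells is therefore not known. Also used were a combined NKX2-1 peak list, whose contributing libraries are not given in the sources used here, and a list of regions called in wild-type clones only.

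The data are lists of peaks with the authors' fold enrichment and −log10 q, and no read counts, so the depth behind a peak is unknown and a site without a peak is not shown to be unbound. The H3K27ac list held 9857 peaks on these chromosomes, and the 8 NKX2-1 antibody lists held 708 to 1107. As a check of the labelled line, an H3K27ac peak lay within 1 kb of an end of 4 of 6 T-cell genes, CD3D, CD3E, CD3G and LCK, and not at CD7 or CD2. It lay there at 0 of 3 B-cell genes and 0 of 3 myeloid genes. WT10 and S36 had the highest counts, with a peak within 50 kb of 598 and 640 of all protein-coding genes against 120 to 288 in the other 6 libraries.

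The proteasome is the protease of the cytosol and nucleus that degrades proteins tagged with ubiquitin. Its 20S core is a barrel of alpha rings, which gate the channel, around beta rings, which hold the cutting sites. The 19S cap recognises and unfolds the substrate with a ring of ATPases and a set of non-ATPase subunits. Assembly factors build the particle and are not part of it. In lymphoid cells and under interferon the cutting subunits can be exchanged for immunoproteasome subunits, which shift the peptides made for antigen presentation. T cells and T-cell leukaemias depend on the protease, and proteasome inhibitors are used against blood cancers.

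An H3K27ac peak lay within 1 kb of a gene end at 26 of the 50 genes (52%). Across all protein-coding genes the share was 19.1% (3811 of 19974). Without PSMC3IP and PSME3IP1, neither of which had a peak, the count was 26 of 48 (54.2%). Acetylation was called at genes of every class of subunit, regulator and assembly factor, from 4 of 6 cap ATPases and 2 of 3 further activators and inhibitors to 2 of 7 assembly factors. The peaks were of middling strength: the median of the strongest fold enrichment was 6.92 over the 26 genes and 6.68 over all genes with such a peak. Of the 26, 14 were above the median of all genes and only PSMD11 was above the upper quartile of 8.39. At a −log10 q of 10 or more, 1 of the 50 genes kept a peak, against 3.62% of all genes. No test was run on these counts, which come from a single library.

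**Figure D1:**
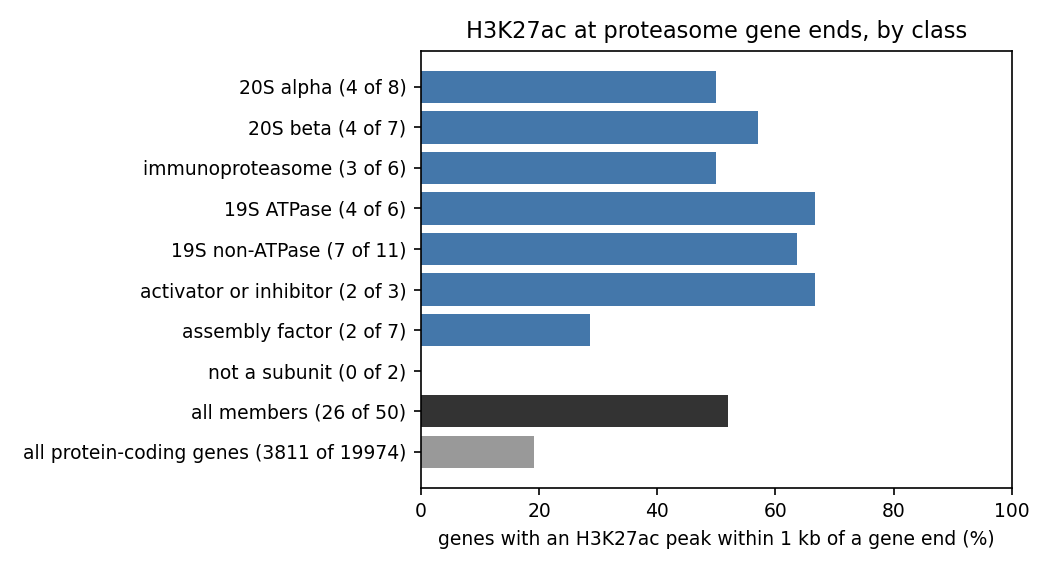
Share of genes in percent (horizontal bars) with an H3K27ac peak within 1 kb of a gene end, for each class of proteasome genes and for all protein-coding genes, in the single H3K27ac library. Every class of subunits, regulators or assembly factors lies above the 19.1% of all genes. The assembly factors are the lowest of them at 28.6%, counted at outer gene ends only.

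5 promoters, with and without acetylation, are shown as the 250 bases before a listed start, 5′ to 3′, from RefSeq on GRCh38.p14. A window of 250 bases before to 50 after each listed start was found for 44 of the 50 genes, 55 windows in all. PSMA6, an alpha-ring subunit, is shown because it was the only one of the 44 genes with an NKX2-1 antibody peak in a window. The share of all promoters with such a peak was not counted. It lies at chr14:35292067-35292316 on the plus strand, and its capitals mark the 108 bases shared by that peak and an H3K27ac peak.
PSMA6: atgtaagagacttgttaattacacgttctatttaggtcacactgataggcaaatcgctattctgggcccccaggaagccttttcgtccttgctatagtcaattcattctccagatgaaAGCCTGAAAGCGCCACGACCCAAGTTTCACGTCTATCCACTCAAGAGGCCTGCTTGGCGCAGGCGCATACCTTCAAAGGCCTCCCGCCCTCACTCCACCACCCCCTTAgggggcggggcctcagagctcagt

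PSMD11, a non-ATPase cap subunit, had the strongest acetylation at an outer gene end among the 50 genes. It lies at chr17:32444260-32444509 on the plus strand, and its capitals mark GC boxes (GGGCGG on either strand).
PSMD11: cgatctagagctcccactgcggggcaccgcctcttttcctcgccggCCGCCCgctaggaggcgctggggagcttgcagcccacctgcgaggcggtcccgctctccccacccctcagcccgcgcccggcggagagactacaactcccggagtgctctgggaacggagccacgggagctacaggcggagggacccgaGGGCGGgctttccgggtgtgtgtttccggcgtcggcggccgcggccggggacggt

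PSME1 and PSME2 code for the 2 chains of the interferon-inducible PA28 activator and are neighbours on chromosome 14. They are shown as a pair of which PSME1 had a called peak and PSME2 had none. PSME1 lies at chr14:24135944-24136193 on the plus strand and PSME2 at chr14:24146611-24146860 on the minus strand. Capitals mark the antioxidant response core TGACNNNGC in both and the interferon-stimulated element GAAANNGAA in PSME2. The PSME1 window held GAAANNGAA as well, but not within the bases printed here, so this element does not separate the pair.
PSME1: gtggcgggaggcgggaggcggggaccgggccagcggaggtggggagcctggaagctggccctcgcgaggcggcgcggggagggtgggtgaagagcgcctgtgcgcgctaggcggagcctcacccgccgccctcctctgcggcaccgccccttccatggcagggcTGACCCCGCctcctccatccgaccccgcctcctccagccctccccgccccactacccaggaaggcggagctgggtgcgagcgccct
PSME2: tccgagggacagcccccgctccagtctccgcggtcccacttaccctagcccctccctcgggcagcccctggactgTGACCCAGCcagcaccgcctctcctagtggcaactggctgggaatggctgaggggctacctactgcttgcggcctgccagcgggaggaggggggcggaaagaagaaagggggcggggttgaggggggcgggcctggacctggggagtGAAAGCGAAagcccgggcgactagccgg

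PSMB9, which takes the place of PSMB6 in the immunoproteasome, is shown as an immunoproteasome gene without a called peak. It lies at chr6:32853942-32854191 on the plus strand, with capitals on a CCAAT box and on an antioxidant response core read on the other strand. Further matches to other motifs in these stretches are not capitalised.
PSMB9: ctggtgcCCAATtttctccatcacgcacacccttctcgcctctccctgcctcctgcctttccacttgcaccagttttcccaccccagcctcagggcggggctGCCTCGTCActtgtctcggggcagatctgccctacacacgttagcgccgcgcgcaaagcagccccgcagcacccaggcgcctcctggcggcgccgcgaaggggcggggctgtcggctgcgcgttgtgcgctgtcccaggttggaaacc

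In the alpha rings, 4 of 8 genes had a peak: PSMA1, PSMA3, PSMA4 and PSMA7, with 6.63- to 7.90-fold enrichment. PSMA7 had the widest acetylated stretch of the 50 genes, a 7.90-fold peak of 1464 bp at chr20:62142347-62143810. That peak also lay within 1 kb of an end of SS18L1, so it cannot be given to PSMA7 alone. No peak lay within 1 kb of an end of PSMA2, PSMA5, PSMA6 or PSMA8. The nearest one was 1558289 bp away from PSMA2, 57600 bp from PSMA5 and 463074 bp from PSMA8, a gene of the testis form of the proteasome. For PSMA6 it was 7286 bp from the outer start, a 9.10-fold peak inside the gene (chr14:35285844-35287575).

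The constitutive beta rings had a peak at 4 of 7 genes: PSMB1, PSMB2, PSMB5 and PSMB7. Their enrichment ran from 5.21-fold at PSMB7 to 7.16-fold at PSMB1. PSMB5, the chymotrypsin-like subunit that proteasome inhibitors such as bortezomib bind, had a 5.80-fold peak. PSMB3, PSMB4 and PSMB6 had none, with the nearest peak at 26121 bp, 56298 bp and 140648 bp.

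Among the 6 immunoproteasome and thymoproteasome genes, PSMB8, PSMB10 and PSME1 had a peak and PSMB9, PSMB11 and PSME2 had none. PSMB8, which replaces PSMB5 in the immunoproteasome, had the strongest of the 3 at 7.65-fold (chr6:32843388-32844061). PSMB10, which replaces PSMB7, had 4.94-fold (chr16:67936042-67936281), and PSME1 had 4.86-fold (chr14:24136476-24136708). The latter were the lowest of the 26 genes, with a −log10 q of 3.20 and 3.04. PSMB9 was 10131 bp from the nearest peak, which was the one at PSMB8. The gene TAP1, which had no peak either, lies between PSMB8 and PSMB9 on chromosome 6. PSMB11, the subunit of the cortical thymic epithelium, was 7282 bp from the nearest peak, and PSME2 was 6657 bp from it. Set side by side, the exchanged pairs were PSMB5 at 5.80-fold and PSMB8 at 7.65-fold, PSMB7 at 5.21-fold and PSMB10 at 4.94-fold, and PSMB6 and PSMB9 both without a peak. Neither the constitutive nor the immune member was the higher in every pair, and with 1 library these differences have no replicate error.

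The 19S ATPases, which unfold the substrate and open the gate, had a peak at 4 of 6 genes. PSMC3 was the highest at 8.33-fold (chr11:47425632-47426453), followed by PSMC6 and by PSMC5, whose peaks also lay within 1 kb of an end of FTSJ3, and PSMC1 was the lowest at 5.17-fold. PSMC2 and PSMC4 had none, with the nearest peak at 336818 bp and 302689 bp.

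At outer gene ends the highest values were those of 19S non-ATPase subunits. Their median was 7.99-fold over the 7 genes with a peak, and 5 of the 10 strongest genes belonged to this class. PSMD11 had 9.12-fold enrichment with a −log10 q of 10.7 (chr17:32444539-32445401). PSMD6 had 8.39-fold, PSMD7 8.14-fold, PSMD12 7.99-fold and PSMD1 7.65-fold. The 4 genes without a peak included both PSMD4, a receptor for ubiquitin chains that was 14161 bp from the nearest peak, and PSMD14, the deubiquitinase of the cap, at 906864 bp. PSMD8 was 285486 bp and PSMD13 was 28667 bp from the nearest peak.

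Among the other activators, PSME4, the PA200 cap, had 7.93-fold enrichment, shared with an end of ACYP2, and PSME3, the nuclear PA28 gamma activator, had 5.81-fold. PSMF1, which codes for the PI31 inhibitor, had no peak within 50 kb, the nearest being 153221 bp away. By outer gene ends the assembly factors had the lowest share, 2 of 7 genes, but PSMG2 and PSMG4 had a peak near a start inside the gene, described below. PSMD5, a chaperone of the cap's base, had 7.90-fold, and PSMG1, a chaperone of the alpha ring, 6.43-fold, shared with an end of BRWD1. No peak lay within 1 kb of an outer end of its partner PSMG2 (22108 bp), PSMG3 (55416 bp) or PSMG4 (4993 bp). The same held for the base chaperones PSMD9 (84007 bp) and PSMD10 (206785 bp). PSMC3IP and PSME3IP1 were 4731 bp and 8551 bp from the nearest peak.

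**Figure D2:**
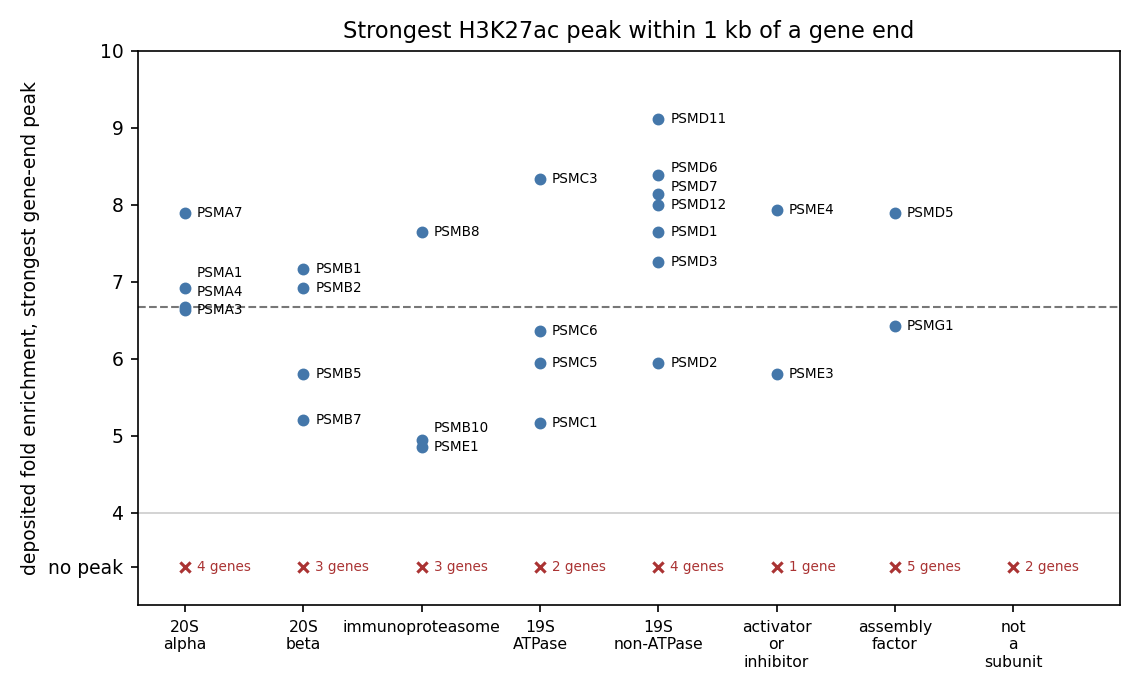
Fold enrichment of the strongest H3K27ac gene-end peak (vertical axis, the authors' values) for each gene with a peak, by class, with a cross and a count for genes without one. The dashed line is the median of all protein-coding genes with a peak, 6.68-fold, and 14 of the 26 genes lie above it.

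The peaks sat at the start of the gene, taken here as its outermost end on the strand side. Of 44 genes with a listed strand, 23 had a peak, and their 28 peaks were all within 1 kb of that start and 0 at the other end only. For PSMA1 the listed start was 123276 bp inside the gene, so its 2 peaks at the outer end were not at the listed start. For all genes the share at the start was 92.8% (3800 of 4096 peaks). Within the 28, 20 peaks lay wholly inside the transcribed side, 5 spanned the start and 3 lay wholly upstream. The summit was downstream of the start for 85.7% of them and for 71% of the peaks at all genes' starts. Its median position was 280 bp downstream for the proteasome genes and 282 bp for all genes. The summits of PSMB8 and PSMD6 were the farthest from the outermost start, 948 bp and 932 bp downstream. PSMB8 also had a listed start 632 bp inside the gene, under its peak. The listed start of PSMD6 was 513 bp inside, 230 bp from its peak. These 2 genes were also the nearest to the 1 kb limit, with peak edges 618 bp and 743 bp from the gene end. Just outside it were PSMC3IP at 4731 bp and PSMG4 at 4993 bp.

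**Figure D3:**
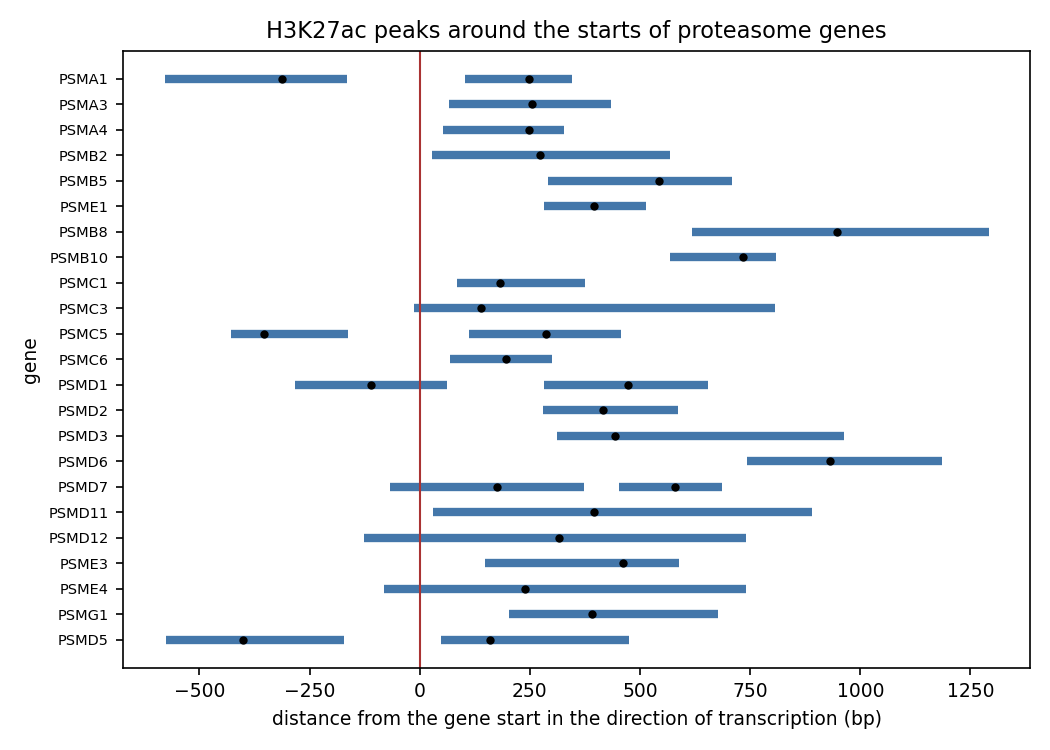
Extent of each H3K27ac peak (horizontal bars, distance in bp from the gene's outermost start, positive in the direction of transcription, with a dot at the summit) at the 23 genes with a listed strand and a peak. Of the 28 peaks, 20 lie wholly downstream of that start, and those of PSMB8 and PSMD6 lie farthest from it.

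Gene ends in the table are the outermost ones, and some genes start from inside them. When every listed start was counted as well, an alternative chosen after the data had been seen, 29 of the 50 genes had a peak within 1 kb (58%, against 20.7% of all genes). The 3 genes added were PSMA6, PSMG2 and PSMG4. With PSMG2 and PSMG4 counted, the share of the assembly factors was no longer below that of the immunoproteasome genes. PSMA6 had an 8.87-fold peak (chr14:35292185-35293040) over a start 13759 bp inside the gene's outer end, a value that only PSMD11 exceeded among the gene-end peaks of the 50 genes. PSMG2 had a 7.90-fold peak at a start 44304 bp inside, and PSMG4 a 5.21-fold peak 450 bp from a start 4543 bp inside. PSMA1 had a second site of this kind, an 11.3-fold peak over a start 123276 bp inside the gene. Its outer end, shared with PDE3B, had only 6.92-fold.

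Motif letters in the promoter windows were counted on both strands as a description, and a base could count for more than 1 motif. The ETS core CCGGAAG was in 32.7% of the 55 windows, against 10.3% of all 35116 windows in the table, 12.8% of those of protein-coding genes and 21% of the protein-coding ones with H3K27ac. The YY1 core AAGATGG was in 18.2% against 5.84% of all windows and 10.2% of protein-coding ones with H3K27ac. The antioxidant response core TGACNNNGC, the element bound by NFE2L1 and NFE2L2, factors known to raise proteasome genes, was in 27.3% against 13.3% of all windows and 14.5% of protein-coding ones with H3K27ac. GC boxes were in 70.9% against 45% of all windows, 56.3% of protein-coding ones and 70.4% of protein-coding ones with H3K27ac. Interferon-stimulated letters GAAANNGAA were in 8 windows (14.5% against 8.11%), those of the immunoproteasome genes PSMB8, PSMB10, PSME1 and PSME2 and of PSMA4, PSMB4, PSMC2 and PSMG4, and not in that of PSMB9. GAS letters TTCNNNGAA were in 14.5% against 7.66%. CCAAT was in 43.6% against 34.6%, the nuclear respiratory factor site GCGCATGC in 5.45% against 3.05% and the RUNX site TGTGGT in 10.9% against 13.1%. The NKX2-1 core CAAGTG was in 11 windows (20% against 11.5%), and the PSMA6 window with the NKX2-1 antibody peak was not among them. For the ETS core, 8 of the 33 windows with H3K27ac within 1 kb and 10 of the 22 without held it.

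Few genes had an NKX2-1 antibody peak nearby, among the proteasome genes as among all genes. Any of the 8 libraries had a peak within 50 kb of 6 of the 50 genes (12%), against 5.63% of all genes. The 6 were PSMB1, PSMA6, PSMD6, PSMC5, PSMD14 and PSMC4. The combined list had a peak near 2 of them, PSMB1 and PSMD6 (4% against 1.69%). The wild-type-only list, which was chosen on these libraries and is no independent evidence of a genotype difference, had a region near 4, PSMB1, PSMA6, PSMD6 and PSMD14 (8% against 2.4%). No library had a peak within 1 kb of an outer end of any of the 50 genes, against 0.401% of all genes. With so low a share over all genes, the count of 0 is not read as a trait of these genes. The other 44 genes had no NKX2-1 antibody peak within 50 kb. Nearest to the limit from inside was PSMD6 at 41.9 kb, and from outside PSMG3 at 62.7 kb.

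**Figure D4:**
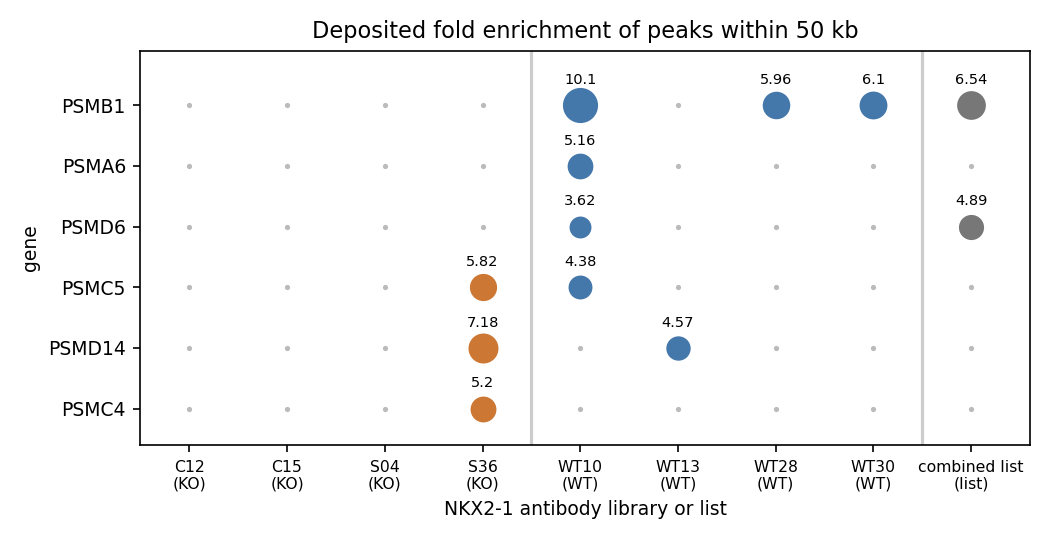
Fold enrichment (number and dot size, the authors' values) of NKX2-1 antibody peaks within 50 kb of the 6 genes that had one, by library, with knockout in orange, wild type in blue and the combined list in grey. Small dots mark libraries without a peak. PSMB1 is the only gene called in more than 1 wild-type library, and S36 is the only knockout library with any call.

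PSMB1, a beta-ring subunit, had the most recurrent site. It was called in WT10 at 10.1-fold (chr6:170504373-170504781), in WT28 at 5.96-fold and in WT30 at 6.10-fold, and the combined list held it at 6.54-fold. WT13 and the 4 knockout libraries had no peak there. The site lay 30.3 kb below the gene, between genes, with PSMB1 the nearest protein-coding one. The nearest H3K27ac peak was the 7.16-fold one at PSMB1's other end, 47961 bp from the combined-list peak.

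PSMA6 was called in WT10 only, at 5.16-fold (chr14:35292059-35292292). This peak ended 25 bp before the inner start described above and overlapped the 8.87-fold H3K27ac peak by the 108 bp printed in capitals. The H3K27ac library names no clone and may be of another genotype, so both peaks are not shown to occur in the same cells. Over the 44 genes with a promoter window, the WT10 peak was the only NKX2-1 antibody peak in one. The share of all promoters with such a peak was not counted. The 3 other wild-type libraries and the 4 knockout libraries had no peak at this site.

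The PSMD6 site was called in WT10 only, at 3.62-fold (chr3:63968437-63968642), and in the combined list at 4.89-fold. It lay inside another gene, ATXN7, 643 bp from an ATXN7 start and 172 bp from a 5.21-fold H3K27ac peak. The PSMC5 site was inside FTSJ3, 6.9 kb from PSMC5, and was called in both genotypes: in WT10 at 4.38-fold (chr17:63820140-63820534) and in the knockout library S36 at 5.82-fold. It was 74 bp from a 6.43-fold H3K27ac peak in WT10's call. PSMD14 had peaks in both genotypes at sites 2277 bp apart, at 7.18-fold in S36 (chr2:161278782-161278982) and at 4.57-fold in WT13. Both lay 26948 bp or more below the gene and far from acetylation, the nearest H3K27ac peak being 1037104 bp from WT13's. PSMC4 had a peak in S36 only, at 5.20-fold (chr19:39941849-39942059), 29.1 kb from it and nearer to FCGBP.

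By library, a peak lay within 50 kb of 0 of the genes in C12 (1.14% of all genes), 0 in C15 (0.941%), 0 in S04 (0.846%) and 3 in S36 (3.2%). Among wild-type clones it lay near 4 genes in WT10 (2.99%), 1 in WT13 (0.601%), 1 in WT28 (1.44%) and 1 in WT30 (1%). The mean was 1.75 ± 1.5 genes in wild-type and 0.75 ± 1.5 in knockout libraries (SD, n = 4 each), a difference smaller than the spread between clones. Over all genes the means were 301.5 ± 209 and 306 ± 224. Of the 6 genes, 3 were called in wild type only, 1 in knockout only and 2 in both. Of all genes with a peak, 445 were called in wild type only, 447 in knockout only and 232 in both, and with 6 genes no difference from that split was tested. With WT10 and S36 left out, a choice made after seeing the data, PSMB1 and PSMD14 remained of the 6.

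A two-sided Fisher exact test of wild-type against knockout calls within 50 kb, run over 19974 genes with Benjamini-Hochberg adjustment, called 0% of them at an adjusted p under 0.05. At an unadjusted p under 0.05 it had 24 genes (13 higher in wild type, 11 in knockout), and none was a proteasome gene. PSMB1, with 3 wild-type and 0 knockout libraries, had an exact p of 0.143 and an adjusted p of 1. Over all genes, 53 had 3 or 4 wild-type and 0 knockout libraries, and 35 had the reverse. With 4 libraries a genotype the smallest p this test can give is 0.0286, so no gene could pass the adjusted threshold across so many genes.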

How the data were processed

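ChIP-seq peaks were deposited for 8 NKX2-1 antibody libraries (4 WT clones, 4 KO clones) and 1 H3K27ac library of RPMI-8402. Per the submitters' processing notes, FastQC, Bowtie2, SAMtools, MACS2 and deepTools were used on hg38; which library served as control, the versions and the calling thresholds are not given in the sources used here. In the deposited files, each peak has the authors' score, their fold enrichment (a ratio over the caller's background), their −log10 q, and the summit position; the WT-only list holds regions only. No reads were counted here, so depth is unknown and no interval on a peak value was possible.

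Members were matched by symbol in the RefSeq table (GRCh38.p14). A gene had H3K27ac where a peak came within 1 kb of either outermost end (by at least 1 bp), and an NKX2-1 antibody peak where one came within 50 kb. Every count was read beside the same count over 19974 genes. WT and KO calls were compared per gene by a two-sided Fisher exact test with Benjamini-Hochberg adjustment over all genes (Python 3.11.15, scipy 1.17.1). The steps of this test were also written out separately and run on simulated calls. At 4 libraries a genotype no simulated gene could pass the adjusted threshold either, so that run is no support for the result. Clones pair by no label. The symbol rule uses no measured value, but the members, classes and motif lists were chosen with earlier results of these data known. Values are given for each member without H3K27ac, the immunoproteasome class, the 10 strongest and 5 weakest of those with it, and each with an NKX2-1 antibody peak; the others are given by counts and ranges. Of the other ubiquitin-proteasome genes, those without H3K27ac and the 3 strongest are named, except for an item that is not reported here. Alternatives varied the windows, the q threshold, the summit, the starts and the libraries.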

Additional observations from a re-analysis of the deposited data

Results flagged for a closer look

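S36, a knockout clone, had an NKX2-1 antibody peak within 50 kb of 3 proteasome genes (PSMC5, PSMC4 and PSMD14), while the other 3 knockout clones had 0. Its gap to the others was the whole range of the group. Over all protein-coding genes S36 stood apart in the same way, with a peak near 640 of them against 169 to 227 in C12, C15 and S04. WT10, a wild-type clone, had a peak near 4 proteasome genes (PSMB1, PSMA6, PSMD6 and PSMC5), while WT13, WT28 and WT30 had 1 each. Over all protein-coding genes WT10 was not flagged, with 598 against 120 to 288 in those clones. Chance sets apart about 1 in 20 groups of this size by this measure for continuous values, a rate that does not hold for small counts in which 3 libraries tie, and the part of WT10 and S36 in the single-library sites was not tested.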

How the results depend on the processing

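The H3K27ac count of 26 genes was 23 with a 0.5 kb window (17.1% of all genes) and 28 with 5 kb (23.2%). It was 26 where the summit had to be inside the window (18.3%) and 23 at the outermost start only (15.2%). It fell to 1 gene (3.62%) at a −log10 q of 10 or more, where the median fold became 9.12, that of PSMD11. The NKX2-1 antibody count of 6 genes was 1 at that q and 2 within 10 kb, against 2.97% and 2.59% of all genes, and 8 within 100 kb, against 9.05%. It was 4 to 6 when each library was left out in turn, 4 without WT10, and 2 without WT10 and S36 (2.65% of all genes). Within 10 kb the combined list had a peak near 0 genes (0.746% of all genes) and the wild-type-only list near 1 gene (1.03%). The difference between genotypes, 1 gene, ran from 0.25 without WT10 to 1.75 without S36. The Fisher test called 0 genes in every alternative run, but so few libraries allowed no other outcome, so this shows nothing about the processing. No paired analysis was possible because the clones share no label that ties a wild-type to a knockout clone, and the test counts libraries. The H3K27ac results rest on 1 library, and peak lists without counts limit what the absence of a peak can show.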

Other observations

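Among 30 other genes of the ubiquitin-proteasome system, 21 had an H3K27ac peak within 1 kb of a gene end (70%, against 19.1% of all protein-coding genes), with a median strongest fold of 5.94. The highest were UFD1 at 10.8-fold and VCP at 9.12-fold, partners in the complex that extracts ubiquitin-tagged proteins, and UBQLN1, a shuttle to the proteasome, at 10.3-fold. NFE2L1, the factor that raises proteasome genes when the protease is inhibited, had a 5.70-fold peak, and its relative NFE2L2 an 8.87-fold peak. Genes without a peak included POMP, SEM1, UBE3C, NGLY1, AKIRIN2, the E1 enzyme UBA1, and TAP1 and TAP2, the chains of the TAP peptide transporter, encoded beside PSMB8 and PSMB9. In the 108 bases of PSMA6 shared by the NKX2-1 antibody and H3K27ac peaks, the letters CTCAAG, looked for after the sequence had been read, occurred 1 time, and they were in 21.8% of proteasome windows and 12.4% of all windows.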
